A study of Gallus gallus with 3 samples.

Results

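The miR-15 and miR-16 family on the chicken array comprised 5 of the 542 mature miRNAs printed on it, namely gga-miR-15a, gga-miR-15b, gga-miR-15c, gga-miR-16 and gga-miR-16c. The members were picked by name, as every probe called miR-15 or miR-16 with at most 1 letter after the number, and no measured value entered this naming rule. The family itself was taken up with earlier results of these data known. The study lists some of its members as predicted regulators of the growth hormone receptor gene. The star strands were left out of the family by this rule. The question addressed was whether the family was present at different levels in the leg muscle of dwarf and normal chickens.

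Total RNA came from leg muscle of recessive White Rock chickens, a meat-type breed, at 7 weeks of age. The dwarf strain carries a deletion in GHR, the gene of the growth hormone receptor, that takes in the end of a coding exon and sequence of the 3′ untranslated region. Each strain gave 3 pools of RNA from 3 chickens each, 9 chickens per strain, and each of 3 two-colour arrays carried 1 dwarf pool and 1 normal pool. On arrays 1 and 3 the dwarf pool was labelled with Cy5 and the normal pool with Cy3, and on array 2 the dyes were swapped. Both strains had been bred for generations, and the deletion and the rest of the strain background cannot be told apart here. The sex of the birds is not given in the sources used here, and a pool hides the spread between the birds in it.

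A miRNA is a short RNA that is cut from a hairpin precursor and guides a silencing complex to messenger RNAs, mainly through the bases near its 5′ end, called the seed. Members of the miR-15 and miR-16 family share their seed and are best known from mammals, where they restrain the cell cycle and survival by acting on cyclins and BCL2. In mice the family takes part in the withdrawal of heart muscle cells from the cell cycle after birth. Most family genes lie in pairs, with a miR-15 hairpin and a miR-16 hairpin next to each other on 1 transcript.

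The sequences that define the family are given as the array lists them, 5′ to 3′, with the seed, bases 2 to 8, in capitals.

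miR-15a: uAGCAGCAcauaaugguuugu

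miR-15b: uAGCAGCAcaucaugguuugca

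miR-15c: uAGCAGCAcaucaugguuugua

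miR-16: uAGCAGCAcguaaauauuggug

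miR-16c: uAGCAGCAcguaaauacuggag

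The first 9 bases were the same in all 5 members. Of the 542 miRNAs on the array, 5 had this seed at bases 2 to 8, and all were members of the family. Outside the shared start the family fell into a miR-15 part and a miR-16 part. Counted from 1 at the 5′ end, miR-15a and miR-15c differed at 1 of 21 bases, A12C. miR-15b and miR-15c differed at 1 of 22 bases, C21U, and miR-16 and miR-16c at 2 of 22, U17C and U21A. Across the 2 parts the differences were wider, from 5 of 21 bases for miR-15a and miR-16 to 9 of 22 for miR-15b or miR-15c and miR-16c. Whether a probe also bound the closest other members was not measured, so the values of miR-15a, miR-15b and miR-15c, or of miR-16 and miR-16c, cannot be taken as independent.

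Beside the family, 2 probes carried the same 7 bases shifted by 1 position, at bases 1 to 7, shown in capitals because the shift sets them apart from the family's seed.

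miR-103: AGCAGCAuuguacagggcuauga

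miR-107: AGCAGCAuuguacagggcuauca

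These 2 miRNAs differed from each other at 1 of 23 bases, G22C. Their genes lie within genes of the pantothenate kinase family, which make the first enzyme of coenzyme A synthesis, and they serve below as relatives in sequence that are not members.

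In RefSeq's gene table for assembly bGalGal1.mat.broiler.GRCg7b, MIR15A neighbours MIR16-1, MIR15B neighbours MIR16-2, and MIR15C neighbours MIR16C. MIR15B and MIR16-2 lie within SMC4, which encodes a condensin subunit that compacts chromosomes in mitosis. The pair MIR15C and MIR16C has HPRT1, a gene of purine salvage, as its further neighbour. Mature miR-16 comes from the 2 genes MIR16-1 and MIR16-2, and its probe cannot tell these sources apart.

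Each array held 3968 spots, of which 3252 were 6 spots for each of the 542 miRNAs. The median background, fitted through the miRNA spots and not measured, was 304 to 830 intensity units in Cy3 and 44.2 to 53.1 in Cy5. Empty spots had medians of 288 to 654 in Cy3 and 44.5 to 56.3 in Cy5. The gap was widest in Cy3 of array 1, a normal pool, at 654 for empty spots against 830. A miRNA was called detected where its mean signal over the 3 pools of a strain was above 32 units, which gave 85 miRNAs in dwarf and 74 in normal muscle. These counts depend on how the signals are scaled, and were 83 and 82 with neither loess nor scaling between arrays. Tests were run on the 85 miRNAs that either strain passed (15.7%). All 74 detected in normal muscle were also detected in dwarf, so the others passed through the dwarf pools alone. Shares of the 85 that were higher in dwarf can lean upward for this reason. Of 8 skeletal muscle miRNAs, 6 were detected in dwarf and 5 in normal muscle, including miR-1a, miR-133a and miR-206, while miR-1b and miR-1c were not. Their summed signal ran from 30530 to 72773 in the dwarf pools and from 43682 to 61962 in the normal pools. None of the 3 brain or 3 pancreas markers was detected. Of 5 blood miRNAs, miR-451 and miR-223 were detected and miR-144, miR-142-3p and miR-142-5p were not, with a summed signal of 70.2 to 157 in dwarf and 53.4 to 86.1 in normal pools. The endothelial miR-126 was detected and miR-126* was not, with a summed signal of 2403 to 5169 in dwarf and 2207 to 4004 in normal pools. Liver miR-122 was detected by its mean, with an uneven signal of 3.35 to 179 in dwarf and 129 to 248 in normal pools. In pooled tissue, less of a miRNA per cell and fewer cells that hold it cannot be told apart, and the part of these cell types in the family's values was not tested.

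All 5 family members were detected in both strains and all 5 were tested. The signal was above 32 in each of the 6 pools for 4 of them, miR-15a being the exception, against 65 of the 85 miRNAs tested (76.5%). Every one of their 180 spot readings, 6 spots in 2 dyes on 3 arrays for 5 probes, lay above the fitted local background. For all miRNAs on the array the share of readings above background was 57.1%, and for the 85 tested it was 97.9%. The weakest family reading came from miR-15a in the Cy5 channel of array 1, the dwarf pool, where 1 spot stood 2.95 units above background and the mean of 6 was 6.88 units. In the same channel the spot noise was 3.25 units. miR-16 and miR-16c were far clearer there, with means of 143 and 145 units above background.

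**Figure D1:**
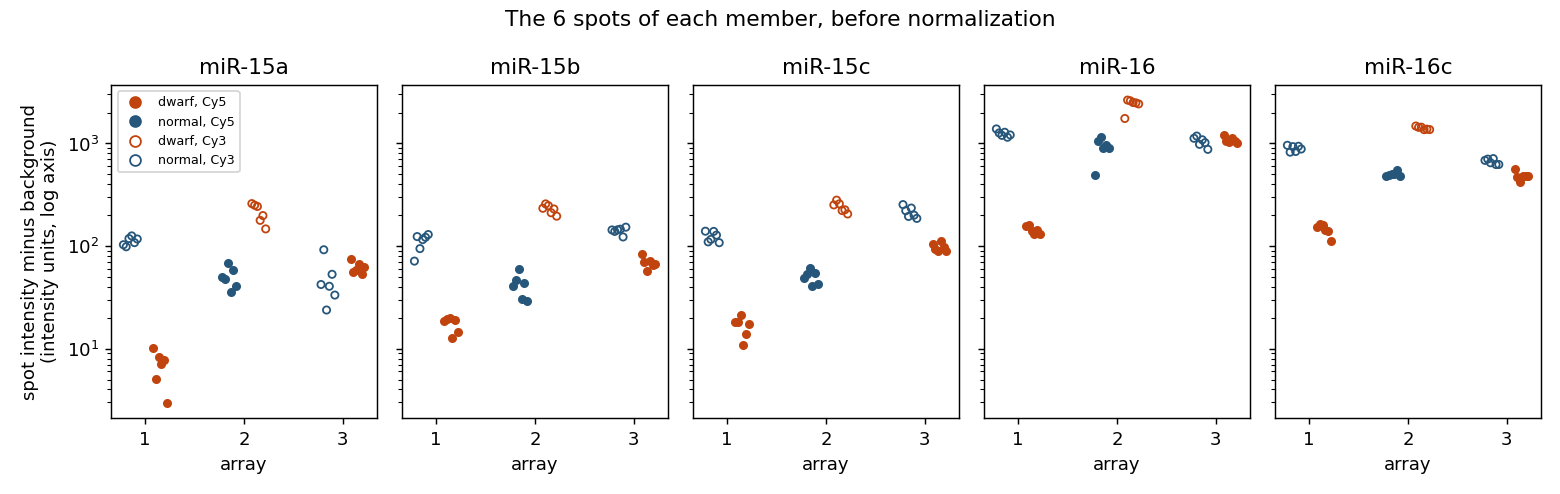
Spot intensity minus background (intensity units, log axis) for each of the 6 spots of the 5 members on each array, before normalization. Filled points are Cy5 and open points are Cy3, orange is dwarf and blue is normal, and on array 1 the dwarf Cy5 spots of every member lie below the normal Cy3 spots, with miR-15a down to 2.95 units.

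The star strand of miR-15c, which comes from the other arm of its hairpin, was on the array as well.

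miR-15c*: cagaccauucugggcugccuca

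It is shown because it shares a hairpin with a member but lacks the seed. Its mean signal was 0.37 ± 3.09 units in dwarf and -10.3 ± 11.9 in normal pools (SD, n = 3 pools), below the detection threshold in both, and 16 of its 36 spot readings (44.4%) lay above background.

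The values of each member follow as normalized signals in intensity units, first in the dwarf and then in the normal pools, in the order of arrays 1, 2 and 3. A ratio is the log2 ratio of dwarf over normal on 1 array, computed with 50 units added to both dyes, which draws the ratios of dim probes towards 0. Signals of different probes are not ranked against each other, since probes bind with different strength.

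miR-15a, the member with the shortest sequence, gave signals of 27.6, 88.8 and 84.9 in the dwarf pools. In the normal pools it gave 87.8, 53.6 and 24.8. The groups overlapped almost fully, with 1 pool of each strain below 32 units. The means were 67.1 ± 34.3 in dwarf and 55.4 ± 31.5 in normal pools (SD, n = 3 each), and an exact two-sided permutation test over the 6 pools gave p = 0.7. This exact test, also used for the other members, shuffles the pools without regard to the array they share. The log2 ratios on the 3 arrays were -0.24, 0.16 and 0.51, so that miR-15a was lower in dwarf on array 1 and higher on the other two. Their mean was 0.14 (limma SE 0.20, 95% interval -0.35 to 0.63, adjusted p = 0.97), higher in dwarf on 2 of 3 arrays. The low normal signal on array 3 rested on a Cy3 reading 47.5 units above a background of 702, where the spot noise was 30.9 units.

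miR-15b, whose gene lies in SMC4, had dwarf signals of 69.5, 95.9 and 91.6. Its normal signals were 86.1, 45.01 and 76.0. The dwarf pools of arrays 2 and 3 were above every normal pool, and the dwarf pool of array 1 was below 2 of them. Mean signals were 85.7 ± 14.1 in dwarf and 69.0 ± 21.4 in normal pools (SD, n = 3 each, exact permutation p = 0.4). The log2 ratio was near 0 on arrays 1 and 3, at -0.025 and -0.014, and 0.36 on array 2, the array with swapped dyes. The mean of 0.11 (limma SE 0.18, 95% interval -0.32 to 0.54, adjusted p = 0.97) thus came from 1 array.

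miR-15c had dwarf signals of 66.7, 99.98 and 125, against 97.2, 54.0 and 120 in the normal pools. Both strains spread over nearly the same range. The means were 97.3 ± 29.4 and 90.4 ± 33.5 (SD, n = 3 each, exact permutation p = 0.7). Ratios of -0.093, 0.27 and -0.12 placed array 2 alone above 0, as for miR-15b. On array 3 the signals of both were higher in dwarf, so that for these dim probes signal and ratio disagreed in direction there. The mean was 0.019 (limma SE 0.18, 95% interval -0.41 to 0.45, adjusted p = 0.97).

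miR-16, the product of 2 genes, gave dwarf signals of 522, 998 and 1114. The normal pools gave 1080, 983 and 719. The dwarf pool of array 1 was the lowest of the 6 and the dwarf pool of array 3 the highest. The means were 878 ± 314 in dwarf and 927 ± 187 in normal pools (SD, n = 3 each, exact permutation p = 0.9). On the log2 scale the arrays gave -0.85, 0.017 and 0.49, a range from a clearly lower to a clearly higher level in dwarf. The mean was -0.12 (limma SE 0.27, 95% interval -0.76 to 0.53, adjusted p = 0.97). The ratios of its 6 spots ran from -0.98 to -0.76 on array 1, from -0.20 to 0.33 on array 2, with 3 on each side of 0, and from 0.28 to 0.63 on array 3. Of the detected markers, endothelial miR-126 had ratios of -0.73, 0.26 and 1.15, in the same order of arrays as miR-16. Each other detected marker had another order, such as 0.20, -0.55 and 0.61 for blood miR-451 and 0.12, 0.023 and -0.51 for muscle miR-206. The part of these cell types in the values of miR-16 was not tested. This order of arrays was not particular to miR-16 and miR-126, and tested miRNAs outside the marker lists had it too. Among them were let-7i, at -0.61, 0.060 and 1.24, and miR-146a, at -0.26, 0.065 and 0.85. In these ratios the SD between arrays for miR-16 was 0.68, larger than that of 89.4% of the miRNAs tested. In the deposited ratios its SD was 0.70, below the 0.82 of miR-15a.

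miR-16c, made from the hairpin next to that of miR-15c, had dwarf signals that were close together, at 531, 578 and 532, while its normal signals were 768, 550 and 428. All 3 dwarf pools lay inside the range of the normal pools. The means were 547 ± 26.6 in dwarf and 582 ± 172 in normal pools (SD, n = 3 each, exact permutation p = 0.8). The ratios of -0.44, 0.0091 and 0.14 were lowest on array 1 and highest on array 3, the order seen for miR-16. Their mean was -0.098 (limma SE 0.19, 95% interval -0.56 to 0.36, adjusted p = 0.97).

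**Figure D2:**
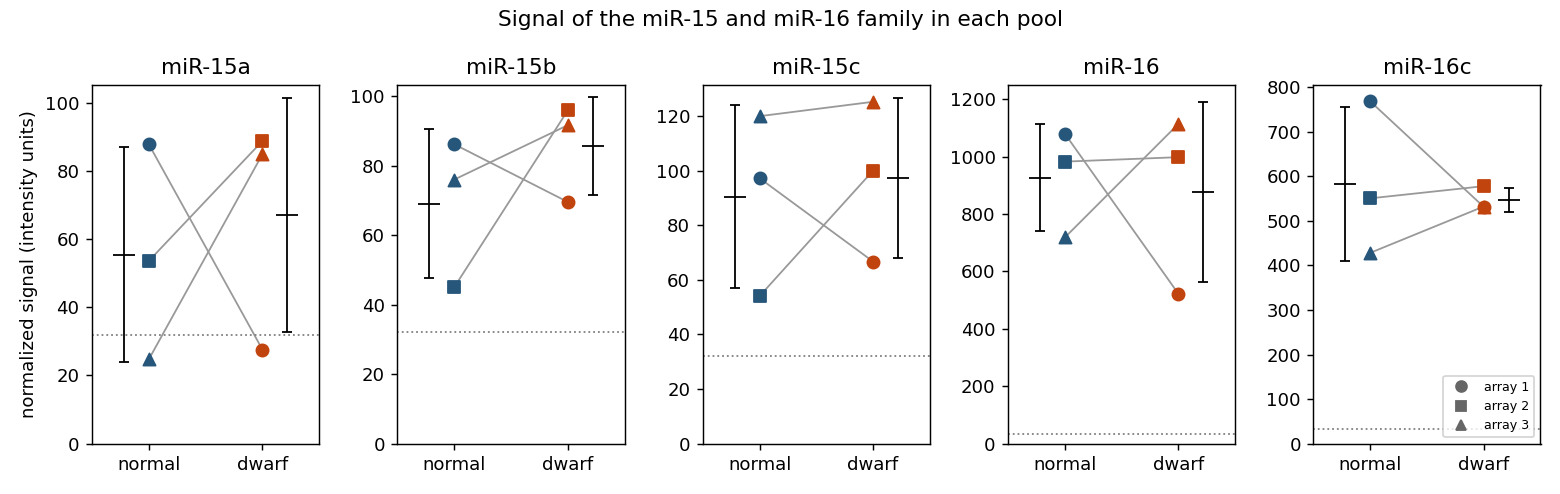
Normalized signal (intensity units, linear axes from 0) of each member in the 3 normal (blue) and 3 dwarf (orange) pools, with a line joining the 2 pools of an array, bars for the mean ± SD of 3 pools, and a dotted line at the detection threshold of 32 units. The pools of the 2 strains overlap for all 5 members, and the lines slope both ways within each member.

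No member of the family passed the test between strains. Across the array, limma with Benjamini-Hochberg adjustment called 0 of the 85 miRNAs tested (0%). At an unadjusted p under 0.05, 4 of the 85 were called (4.71%), and none of these was a member. The methods' t-test, paired by array, also gave 4 of 85 at that level, and 0 after adjustment, again with no member. At the methods' own threshold of p under 0.01 it gave 0 of 85. The groups of pools did not overlap for 13 of the 85 miRNAs (15.3%) and for 0 of the 5 members. The log2 ratio kept 1 sign on all 3 arrays for 25 of the 85 (29.4%, with 21.2% above 0 throughout and 8.24% below) and for 0 of the 5 members. With 3 against 3 pools the exact test cannot go below p = 0.1, and with 3 arrays a sign-flip test of the ratios cannot go below p = 0.25. The sign-flip test keeps the pairing by array, and its smallest p for a member was 0.75, for miR-15a. On the fold scale the 95% intervals ran from 0.79 to 1.54 for miR-15a, from 0.80 to 1.45 for miR-15b and from 0.75 to 1.36 for miR-15c. They ran from 0.59 to 1.44 for miR-16, the widest, and from 0.68 to 1.28 for miR-16c. All are on the scale with 50 units added.

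On the first 2 arrays the members fell on the same side of 0, though not in the other 2 sets of ratios given below. On array 1 all 5 had ratios below 0, against 38 of the 85 miRNAs tested (44.7%). On array 2 all 5 were above 0, against 51 of 85 (60%). On array 3 it was 3 of 5 above 0, against 48 of 85 (56.5%). With the linear trend on GC content taken out, 3 of 5 were below 0 on array 1 and 3 of 5 above 0 on array 2. In the log2 ratios deposited by the authors the counts were 4 of 5 below 0 on array 1 and 3 of 5 above 0 on array 2. The median ratio of the 5 members was -0.24, 0.16 and 0.14 on the 3 arrays, and that of all miRNAs tested was 0.055, 0.069 and 0.073. Among the sets of ratios compared here, all 5 members thus shared a side of 0 only in the ratios as reported, and there on arrays 1 and 2 alone. In the same ratios arrays 1 and 3, with the same dye order, gave opposite signs for miR-15a, miR-16 and miR-16c. The mean ratio over the arrays was above 0 for miR-15a, miR-15b and miR-15c, 3 of the 5 members, against 54 of the 85 (63.5%). The median of the members' mean ratios was 0.019, beside 0.048 for all 85.

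**Figure D3:**
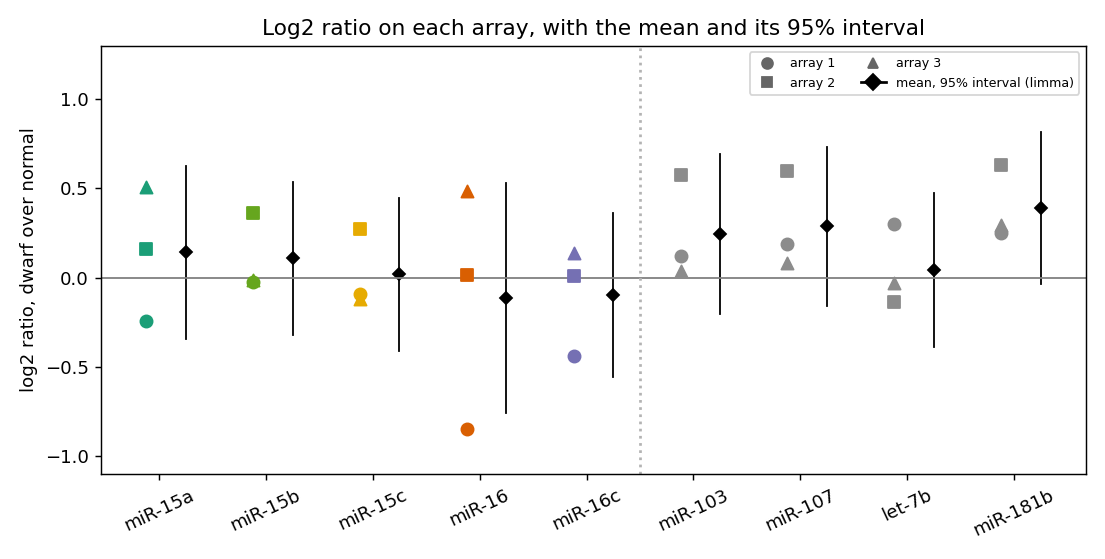
Log2 ratio of dwarf over normal on array 1 (circles), array 2 (squares) and array 3 (triangles), with the mean and its 95% interval from limma in black, for the 5 members and, right of the dotted line, for 4 other miRNAs. In these ratios all 5 members are below 0 on array 1 and above 0 on array 2 (3 and 3 with the GC trend taken out, 4 and 3 in the deposited ratios), and every interval spans 0.

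The members had unlike spreads between arrays. The SD of the log2 ratio between arrays was 0.22 for miR-15b and for miR-15c, 0.31 for miR-16c, 0.38 for miR-15a and 0.68 for miR-16, beside a median of 0.28 over the 85 tested. Between the 6 spots of 1 array the SD was 0.069 to 0.21 over all members and arrays. The ranking of the members by spread between arrays depended on the processing. In the deposited ratios that SD was 0.82 for miR-15a, 0.70 for miR-16, 0.26 for miR-15b and for miR-15c, and 0.17 for miR-16c. With the background subtracted without normexp, the limma SE was 0.71 for miR-15a and 0.38 for miR-16. With the GC trend taken out, miR-16 kept the largest SD, at 0.58, beside 0.26 for miR-15a. Each array carried other pools, so the spread between arrays holds differences between pools as well as between hybridizations, and these cannot be told apart.

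**Figure D4:**
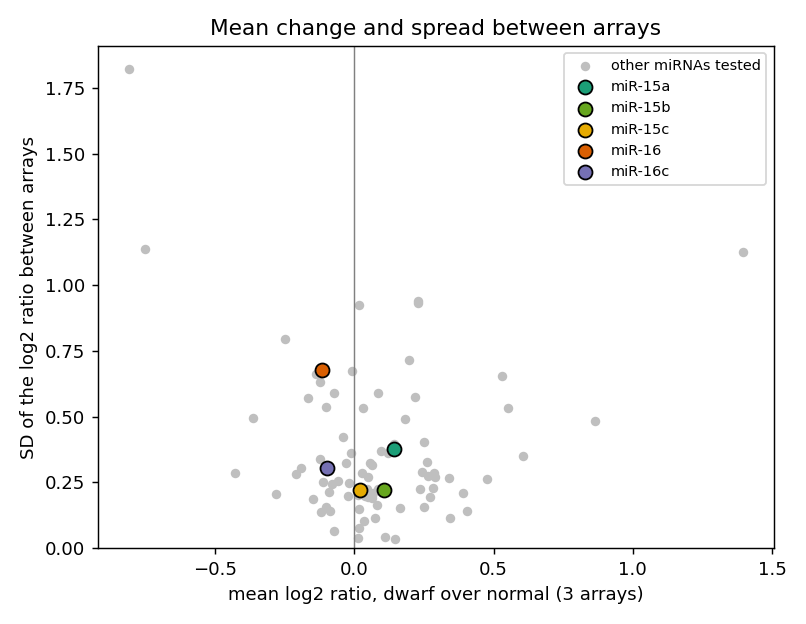
SD of the log2 ratio between the 3 arrays against its mean, dwarf over normal, for the 85 miRNAs tested, with members in colour and others in grey. The members' means lie between -0.12 and 0.14, and miR-16 stands high with an SD of 0.68. In the deposited ratios, not drawn here, miR-15a had the largest SD of the members, at 0.82, beside 0.70 for miR-16.

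The profiles of the members over the 6 pools were compared by the root mean square difference of their log2 values, where 0 means the same profile. These values carry the offset of 50 units, unlike the signals given above, with each array centred on its median and each miRNA on its own mean. Within the family miR-15b and miR-15c were the closest pair, at 0.13, and miR-15b and miR-16 the farthest, at 0.65. miR-16 and miR-16c differed by 0.32. With the offset, neighbouring genes did not give the closest profiles. miR-15a and miR-16, which can come from the same annotated gene, differed by 0.59, miR-15b and miR-16 by the 0.65 given above, and miR-15c and miR-16c by 0.41. The 2 hairpins of miR-16 add to 1 probe, so neither of the first 2 values compares single loci. A comparison on the signals without the offset was added after the values were seen. There miR-15b and miR-15c were again the closest pair, at 0.24, but the farthest pair was miR-15a and miR-15c, at 0.80. Of the neighbours, miR-15b and miR-16 then differed by 0.48 and miR-15c and miR-16c by 0.53. For miR-15a the closest member was then its neighbour miR-16, at 0.47, so the statement on neighbours depends on the offset.

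Among the other miRNAs tested, the profiles nearest to miR-16 over the 6 pools were those of let-7f, at 0.15, and let-7g, at 0.17, beside a median of 0.54 over all others. Both had the array pattern of miR-16, with ratios of -0.75, 0.15 and 0.58 for let-7f and -0.61, 0.45 and 0.75 for let-7g. Nearest to miR-16c were miR-128 at 0.078 and miR-20a at 0.16. For miR-15a they were let-7d at 0.11 and miR-1451 at 0.19. miR-15b was nearest to miR-1579 at 0.10 and miR-221 at 0.14, and miR-15c to miR-221 at 0.083 and miR-101 at 0.20. On the signals without the offset, let-7f was again the nearest to miR-16, at 0.10, but miR-2127 came next, at 0.27, in place of let-7g. Nearest to miR-16c were again miR-128 and miR-20a, at 0.13 and 0.14. The nearest to miR-15a, miR-15b and miR-15c were then let-7i at 0.32, miR-30d at 0.26 and miR-221 at 0.27. These distances rest on 6 pools that share arrays and scaling, and are given as a description.

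The relatives with the shifted seed stood on the other side of 0 on array 1. miR-103 had log2 ratios of 0.12, 0.57 and 0.036 and miR-107 of 0.19, 0.60 and 0.080, so that both were higher in dwarf on 3 of 3 arrays. Their means were 0.24 (limma adjusted p = 0.848) and 0.29 (adjusted p = 0.825), and neither passed the test. In the deposited ratios both were below 0 on array 3, at -0.36 for miR-103 and -0.30 for miR-107. The difference between these 2 and the family was not tested.

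Predicted regulators of GHR, taken from the target predictions used in the study, included miR-15c, miR-16 and miR-16c together with let-7b and miR-181b. Of these 5, none passed the threshold. let-7b, a member of the let-7 family, had ratios of 0.30, -0.14 and -0.031 with a mean of 0.044 (limma adjusted p = 0.97). The paper reports let-7b as significantly higher in dwarf muscle at this age. It names no adjustment of that p-value for the number of miRNAs, whereas the p given here is adjusted. In the deposited ratios let-7b was higher in dwarf on 3 of 3 arrays, at 0.32, 0.048 and 0.20, with a mean of 0.19. No miRNA passed limma's adjusted threshold on the deposited ratios. The direction of let-7b on arrays 2 and 3 thus depended on the processing. miR-181b, of a family studied in muscle differentiation and in lymphocytes, was higher in dwarf on 3 of 3 arrays, with ratios of 0.25, 0.63 and 0.29 and a mean of 0.39 (limma adjusted p = 0.708). In the deposited ratios it was at -0.022 on array 3. Its pools did not overlap, which for 3 against 3 gives the smallest exact p of 0.1. The 3 family members on this list each had pools that overlapped and ratios of both signs. The prediction was run on miRNAs that the study had called changed by array and was set against its changed messenger RNAs, so the list is not independent of measured expression. Whether any of these miRNAs acts on GHR was not measured by these arrays.

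Base composition moved with the ratios on each array. Over the 85 miRNAs tested, the log2 ratio changed by 0.10 per 10 percentage points of GC content on array 1, by -0.053 on array 2 and by -0.086 on array 3. The members held 38.1% to 45.5% GC, below the mean of 51.2%. With this trend taken out, the ratios of miR-16 were -0.75, -0.038 and 0.40 and those of miR-16c were -0.38, -0.021 and 0.090. miR-15a then had -0.11, 0.089 and 0.40. These 3 members had the same order of arrays as before. miR-15b became 0.033, 0.33 and -0.063 and miR-15c 0.0098, 0.22 and -0.21, so that both turned to just above 0 on array 1, and miR-15b changed its order of arrays.

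The log2 ratios deposited by the authors put the mean of every member lower than the values above. Their means were -0.37 for miR-16, -0.32 for miR-16c, -0.099 for miR-15a, -0.051 for miR-15c and 0.093 for miR-15b. Comparison with the scanned intensities showed dwarf as the numerator on each array (correlation across the 85 miRNAs 0.83, 0.88 and 0.89). The methods name background subtraction, a LOWESS filter and balancing of the ratios, without the settings. The median deposited ratio was 0.15, 0.018 and 0.15 over the whole array, and 0.105, 0.0475 and -0.011 over the 85 miRNAs tested. In the deposited ratios miR-16c was below 0 on each array, at -0.45, -0.37 and -0.13, and miR-16 on 2, at -1.04, -0.44 and 0.36. miR-15a was the most uneven of all members there, at -0.99, 0.069 and 0.62, with an SD of 0.82 against 0.70 for miR-16. No member passed limma's adjusted threshold on these values either.

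The direction of the miR-15 members depended on the normalization. With each array centred on its median in place of loess, the means of miR-15a, miR-15b and miR-15c were -0.13, -0.13 and -0.18, and those of miR-16 and miR-16c stayed below 0. With no normalization within arrays the median of all 85 miRNAs was -0.51, and the members lay between -0.70 and -0.54. Leaving out 1 array changed signs too. Without array 1 the means of miR-16 and miR-16c became 0.25 and 0.074. Without array 2 those of miR-15b and miR-15c were -0.019 and -0.11, and without array 3 that of miR-15a was -0.043. In none of the 101 alternative values of the 5 members was the adjusted p under 0.05, and the smallest was 0.547.

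**Figure D5:**
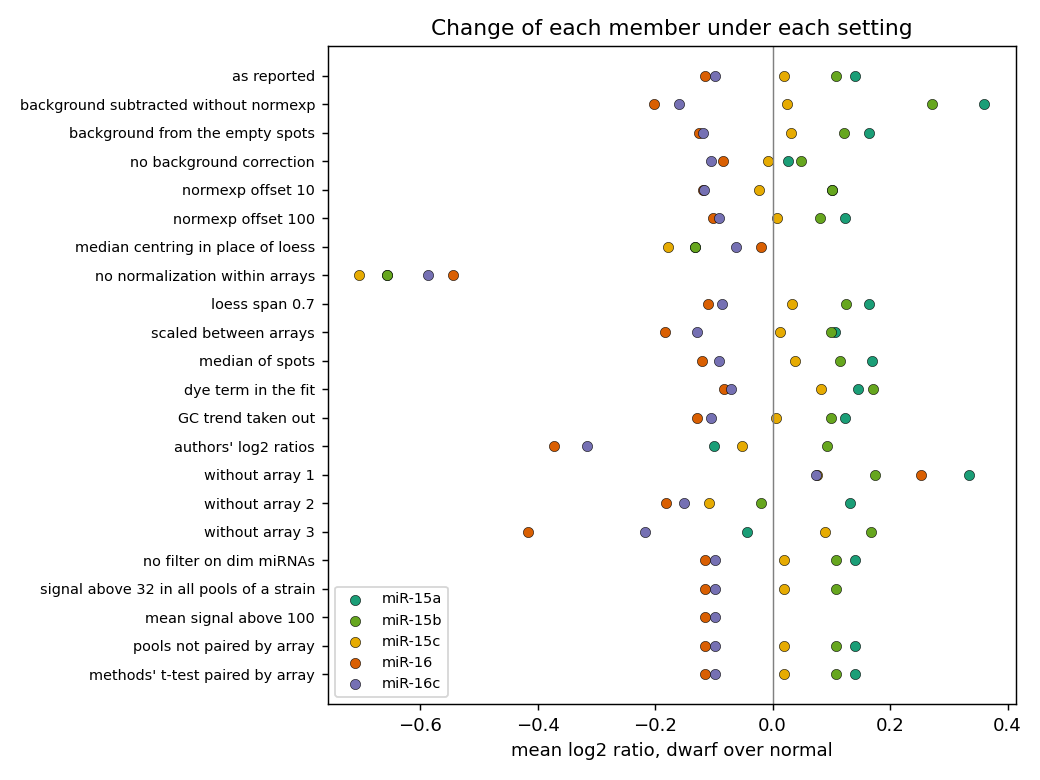
Mean log2 ratio of dwarf over normal for each member (coloured points) under each processing setting, with the values as reported in the top line. The 101 alternative values run from -0.70 to 0.36, with 48 above 0 and 53 below, and each member has values on both sides of 0. Settings that changed only the filter, the pairing or the test keep the fold change by construction, and their values are among the 101.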

How the data were processed

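The authors deposited, for each of 3 two-colour miRNA arrays, the Cy3 and Cy5 intensity of every spot, with no background value, and a table of log2 ratios. The intensity values are the scanner's; per the methods, the authors then subtracted background and normalized by LOWESS before they deposited log2 ratios.

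From the intensities, background was estimated per array and dye as a robust loess surface over rows and columns through the miRNA spots (span 0.3). Ratios used normexp with an offset of 50 and loess within arrays (span 0.3), the mean of 6 spots, and array 2 turned to dwarf over normal. Signals were background-subtracted, corrected by the same loess curve and scaled to one median per array, a scaling chosen with the members' values in view. The test covered miRNAs whose mean signal exceeded 32 in dwarf or normal pools, in limma 3.58.1 (R 4.3.3, lmFit and eBayes on 3 ratios, Benjamini-Hochberg over 85 miRNAs). The pools of an array share its hybridization, so the test is paired by array. The scripts were tested on simulated data.

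The members and lists were chosen with earlier results of these data known. Named miRNAs were the 5 members, the star strand of a member, miR-103 and miR-107, the predicted GHR regulators, and for each member the 2 tested miRNAs with the closest profile. Alternatives changed the background, offset, normalization, spot summary, dye term, GC trend, filter, pairing and test, used the deposited log2 ratios, or left out 1 array.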

Additional observations from a re-analysis of the deposited data

How the results depend on the processing

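The precision is limited to 3 arrays, by the dim Cy5 channel of array 1 and, for the 3 miR-15 members, by signals near background. Settings that changed only the filter, the pairing or the test kept the fold changes by construction. Over 101 alternative log2 fold changes of the 5 members, with those settings counted, 15 changed sign. None had an adjusted p under 0.05 in limma or the t-test (0.547 to 0.994). The sign changes follow by member. For miR-15c these were -0.0077 with no background correction, -0.023 with an offset of 10, -0.18 with median centring, -0.70 with no normalization within arrays and -0.051 with the deposited ratios. For miR-15a they were -0.13, -0.66 and -0.099 with the last 3 of these settings, and for miR-15b -0.13 and -0.66 with median centring and with no normalization. The cause was not tested, except that with no normalization the median of all 85 miRNAs was -0.51. Leaving out 1 array gave -0.043 to 0.33 for miR-15a, -0.019 to 0.17 for miR-15b, -0.11 to 0.090 for miR-15c, -0.42 to 0.25 for miR-16 and -0.22 to 0.074 for miR-16c. The number of miRNAs with adjusted p under 0.05, 0 as reported, was 1 with median centring, 3 with the GC trend taken out, 1 with a mean signal above 100, and 0 to 2 with 1 array left out (1 without array 1 and 2 without array 3), and no member was among them. In the fits with the GC trend taken out, with the signal above 100 and without array 3, limma gave all miRNAs 1 common variance. Counts at an unadjusted p under 0.05 ran from 0 to 9 in the settings with 85 miRNAs tested, against 4 as reported. With other filters they were 20 of 542, 4 of 74 and 4 of 58. With the pools not paired by array (no replicate block), the members kept their fold changes by construction, at an adjusted p of 0.986, and 0 miRNAs were called. Dwarf minus normal signals became -11.1 for miR-15c and 139 for miR-16 without loess and scaling, and -34.1, -31.9 and -42.0 for miR-15a, miR-15b and miR-15c with the background from the empty spots. With that background the mean signals of these 3 members were 107, 122 and 144 in normal pools and 72.6, 90.0 and 102 in dwarf pools. With 1 array left out, a choice made after seeing the data, the dwarf minus normal signals ran from -12.5 to 47.6 for miR-15a, from -0.47 to 33.2 for miR-15b, from -12.6 to 25.6 for miR-15c, from -271 to 206 for miR-16 and from -105 to 65.6 for miR-16c. The number of members detected was 2 in dwarf and 2 in normal muscle at a signal above 100, and 4 and 4 where every pool had to be above 32.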
